A study of Rattus norvegicus with 99 samples.

Results

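The interventricular septum is the wall that both ventricles share, and it was compared between rats with a loaded left heart and rats with a loaded right heart. Libraries were chosen by their titles as the septum (Spt) of the compensated stage after aortic banding (AOB-H, 7 libraries) or pulmonary artery banding (PAB-H, 7 libraries). These are 14 of the 33 septum libraries and of the 99 libraries of the series, in which the left ventricle (LV), septum and right ventricle (RV) of each animal were sequenced separately as poly(A) RNA. All animals were male F1 rats from Wistar Kyoto mothers and Lewis fathers. In AOB-H a clip lay around the ascending aorta, and in PAB-H around the pulmonary artery. The clips did not constrict when placed and narrowed the vessel relatively as the animals grew. The labels give an age of 11 weeks at sampling, 7 weeks after surgery, for both groups and for the 7 sham-operated animals (Sham-H) of the same age. The sources disagree on the age at surgery, and with it on the age at sampling. Each septum library came from 1 animal, and the 14 libraries held 14383724 to 21587693 counted reads.

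The septum contracts with both ventricles. Aortic banding raises the pressure that the left ventricle works against, and pulmonary artery banding raises that of the right. Heart muscle under load is known for a return to fetal genes, among them those for the natriuretic peptides and for skeletal alpha-actin, and for new matrix between the muscle cells.

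The promoters of 4 load-responsive genes are shown to give the regulatory sequence next to the values that follow. Nppa, Nppb and Ankrd23 were among the 8 genes with the lowest adjusted p, and Acta1 was a gene fixed by name. Each runs 5′ to 3′ from 250 bases before to 50 bases after the RefSeq transcription start. Coordinates are those of the build GRCr8, which is not the build of the counts. Nppa lies at chr5:163711934-163712233 and Nppb, its neighbour, at chr5:163699758-163700057, both on the plus strand. Ankrd23 lies at chr9:46274461-46274760 and Acta1 at chr19:68784145-68784444, both on the minus strand. Capitals mark matches, on either strand, to the TATA box (TATAAA), the M-CAT element (CATTCC), the GATA element (GATAA) and the CArG box. The AP-1 element (TGANTCA) was searched as well and had no match in these 4.
Nppa: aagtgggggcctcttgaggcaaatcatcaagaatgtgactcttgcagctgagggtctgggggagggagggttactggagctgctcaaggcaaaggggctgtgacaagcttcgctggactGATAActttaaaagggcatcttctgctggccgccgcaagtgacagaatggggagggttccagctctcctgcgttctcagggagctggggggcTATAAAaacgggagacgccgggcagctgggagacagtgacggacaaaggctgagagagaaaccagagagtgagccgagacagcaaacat
Nppb: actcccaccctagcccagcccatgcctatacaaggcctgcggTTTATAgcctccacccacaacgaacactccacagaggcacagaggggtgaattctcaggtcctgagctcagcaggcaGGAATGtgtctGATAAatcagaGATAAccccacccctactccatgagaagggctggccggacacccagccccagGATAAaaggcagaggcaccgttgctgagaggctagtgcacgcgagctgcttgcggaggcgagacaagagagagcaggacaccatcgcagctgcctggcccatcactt
Ankrd23: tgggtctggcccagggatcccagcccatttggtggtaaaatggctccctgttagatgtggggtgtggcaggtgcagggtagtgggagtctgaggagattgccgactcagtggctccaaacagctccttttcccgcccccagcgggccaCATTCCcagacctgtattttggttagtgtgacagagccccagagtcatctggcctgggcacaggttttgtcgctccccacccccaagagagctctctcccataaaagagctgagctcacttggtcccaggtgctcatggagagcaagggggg
Acta1: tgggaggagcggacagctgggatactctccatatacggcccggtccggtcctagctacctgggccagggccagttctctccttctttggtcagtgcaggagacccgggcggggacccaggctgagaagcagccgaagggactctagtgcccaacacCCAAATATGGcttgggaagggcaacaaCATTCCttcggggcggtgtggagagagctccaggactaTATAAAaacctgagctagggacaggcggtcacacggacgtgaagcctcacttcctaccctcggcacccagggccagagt
The M-CAT letters stood in Nppb, Ankrd23 and Acta1 and in 14.2% of the 33469 promoters of the table. Letters of a GATA element stood 3 times in Nppb and once in Nppa, against 26.5% of all promoters with at least 1. A CArG box, the binding sequence of serum response factor, stood in Acta1 and in 1.64% of all promoters. TATAAA was found in Nppa at -39 and in Acta1 at -29 from the start, and in 14.2% of all promoters. In Nppb it stood on the reverse strand (TTTATA) and further off, at -208. AP-1 letters were found in 7.33%. Of the 12 genes per direction that the rule for naming chose, 10 higher in AOB-H and all 12 higher in PAB-H had a promoter in the table. M-CAT letters stood in 3 of the 10 and 1 of the 12, GATA letters in 4 and 1, TATAAA in 2 and 0, AP-1 letters in 1 and 0, and a CArG box in 0 and 0. A match describes the letters and is no evidence of binding.

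Did the septum differ between both loads? The 8 genes with the lowest adjusted p were all higher in AOB-H, and they include those of the natriuretic peptides, of a sarcomere-associated ankyrin repeat protein and of a growth factor, but no gene passed. Of 11624 genes tested by edgeR's quasi-likelihood test with Benjamini-Hochberg adjustment, 0 (0% of the genes) had an adjusted p under 0.05, and the lowest was 0.170 for Ankrd23. At an unadjusted p under 0.05 were 879 genes (7.56%), 471 of them higher in AOB-H (4.05%) and 408 higher in PAB-H (3.51%). The 879 became 457 without AOB-H replicate 3 and 1355 without replicate 6, while chance alone gives about 581. DESeq2 called 8 genes, 8 of them higher in AOB-H, and limma-voom with sample weights 40, 12 of them higher. Without regard to p, 50.7% of the genes tested were higher in AOB-H. Levels below are CPM, counts scaled to a common library size with TMM factors, and fold changes are log2 of AOB-H over PAB-H with their standard error. Because nothing passed, "higher" and "lower" refer to measured values only.

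Nppa encodes atrial natriuretic peptide, which ventricles express in fetal life and again under load. In AOB-H it ranged from 346 to 5764 CPM (1987 ± 2024, SD), in PAB-H from 161 to 556 with a median of 403, and in Sham-H from 230 to 830 with a median of 507. In 5 of 7 animals AOB-H lay above every PAB-H library, and replicates 6 and 7 lay within the PAB-H range. The log2 fold change was 2.34 ± 0.53 (edgeR adjusted p 0.170).

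Nppb, the gene of B-type natriuretic peptide, was one of the few without overlap. AOB-H spanned 393 to 963 CPM (median 445), PAB-H 153 to 391.5 (median 274) and Sham-H 295 to 486 (median 423). All 7 AOB-H libraries were above all 7 PAB-H libraries, but 5 of them lay within the sham range, while PAB-H was the lower group. The fold change was 0.99 ± 0.22 (edgeR adjusted p 0.170). Npr3, the clearance receptor of these peptides, had 0.68 ± 0.25, whereas the signalling receptor Npr1 had 0.07 ± 0.10 and the processing protease Corin -0.39 ± 0.27. Of the 8 tested genes of these peptides and their partners, 4 were higher in AOB-H, with a median of 0.01.

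Ankrd23, an ankyrin repeat protein that binds titin in the sarcomere, had the lowest p of all genes. Its levels in AOB-H replicates 1 to 7 were 427, 163, 542, 262, 191, 59.1 and 45.5 CPM. Those in PAB-H replicates 1 to 7 were 111, 61.8, 31.2, 75.6, 70.7, 42.9 and 43.0 CPM. Sham-H ranged from 35.1 to 81.9 CPM. The first 5 AOB-H libraries were above every PAB-H and every Sham-H library, and the last 2 were inside both ranges. The fold change was 1.95 ± 0.39 (edgeR adjusted p 0.170).

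Acta1, skeletal alpha-actin, ranged from 1188 to 3978 CPM in AOB-H (median 2362), from 504 to 1631 in PAB-H (median 1392) and from 1107 to 1559 in Sham-H (median 1367). In 4 of 7 animals AOB-H was above all PAB-H libraries, and PAB-H replicate 3 was far below the others. The fold change was 0.88 ± 0.24 (edgeR adjusted p 0.275). Of the other sarcomere genes, Ankrd1, a cardiac stress protein of the same family as Ankrd23, had 0.48 ± 0.17, and Myh7, the slow myosin heavy chain, 0.32 ± 0.19. Myh6, the fast myosin heavy chain of the adult rat, was lower in AOB-H at -0.51 ± 0.19.

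**Figure D1:**
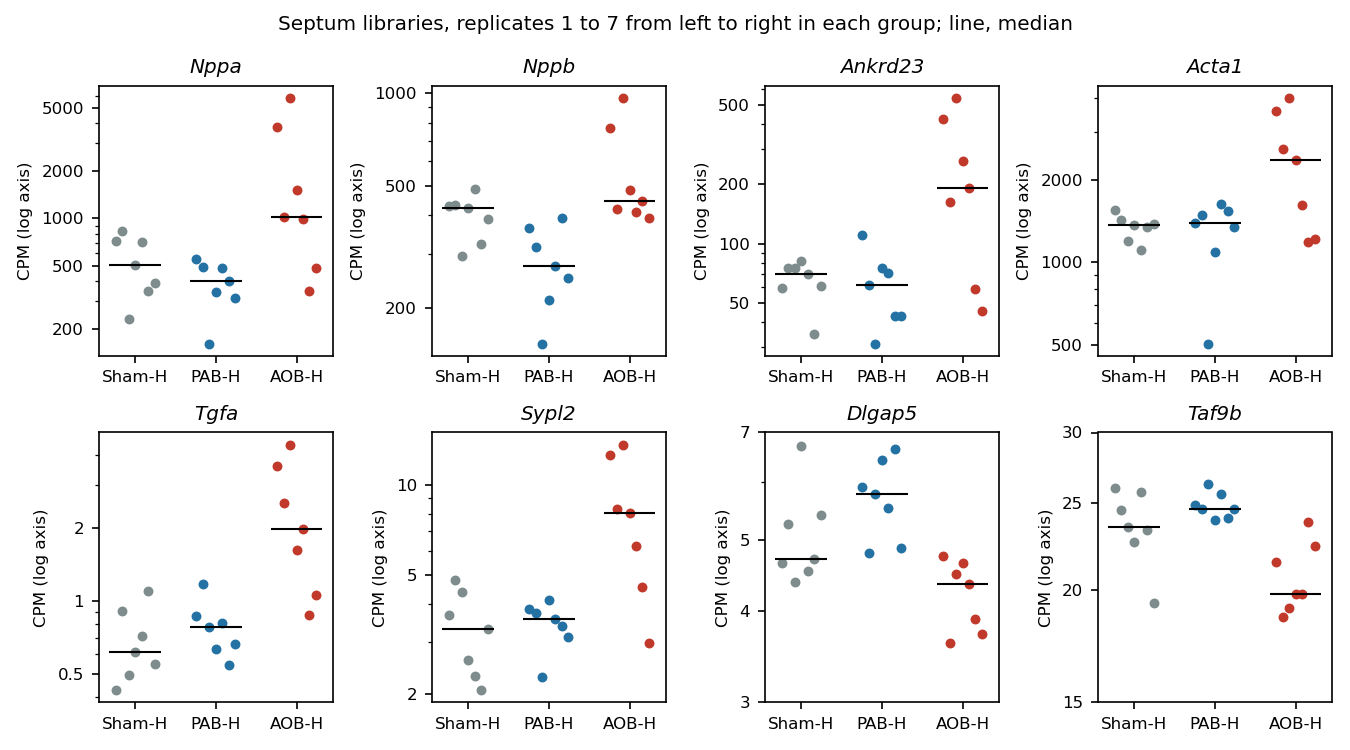
Levels in the septum in CPM (log axis) of 8 genes in Sham-H, PAB-H and AOB-H, with 1 point per library (replicates 1 to 7 from left to right) and a line at the median. For Ankrd23, AOB-H replicates 1 to 5 lie between 163 and 542 CPM and replicates 6 and 7 at 59.1 and 45.5, within the PAB-H range of 31.2 to 111.

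Among signalling genes, Tgfa, a ligand of the EGF receptor, was at 0.874 to 4.39 CPM in AOB-H (median 1.97) and 0.542 to 1.17 in PAB-H (median 0.779). Of the AOB-H libraries, 5 of 7 lay above all PAB-H libraries, with a fold change of 1.54 ± 0.33 (edgeR adjusted p 0.170). Hbegf, another ligand of that family, had 0.57 ± 0.20, and the receptors Egfr and Erbb2 had 0.21 ± 0.18 and -0.13 ± 0.20. The 10 tested genes of the EGF family and its receptors had 4 higher in AOB-H and a median of -0.08. Of the 4, 2 were so at an unadjusted p under 0.05, against 4.05% of all genes. Gdf15, a stress cytokine of the TGF-beta family, averaged 1.99 CPM in AOB-H and 0.818 in PAB-H (edgeR adjusted p 0.275). In the list of TGF-beta and BMP signalling 14 of 22 tested genes were higher in AOB-H, and the median was 0.06. At an unadjusted p under 0.05 were 4 (Gdf15, Tgfb2, Tgfb1 and Inhbb), against 4.05% of all genes. Tgfb2 had 0.77 ± 0.23, Tgfb1 0.22 ± 0.09 and Tgfb3, the other ligand of that name, 0.00 ± 0.11. Penk, the gene of proenkephalin, was higher at 0.76 ± 0.21, with 6 of 7 AOB-H libraries above all PAB-H libraries. Rcan1, a calcineurin target, had 0.42 ± 0.13.

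Sypl2, a junctional membrane protein of striated muscle, ranged from 2.96 to 13.6 CPM in AOB-H and from 2.29 to 4.13 in PAB-H, with 6 of 7 AOB-H libraries above all PAB-H libraries. Akip1, a partner of protein kinase A, spanned 18.0 to 110 CPM in AOB-H and 17.7 to 29.3 in PAB-H. Their fold changes were 1.23 ± 0.27 and 1.30 ± 0.29 (edgeR adjusted p 0.170 for both). Gba3, a cytosolic glucosidase, had 1.75 ± 0.38, Rnd1 1.10 ± 0.26, and Ptgds, a prostaglandin synthase, 0.83 ± 0.20. Ptprt, a receptor phosphatase, had 0.98 ± 0.24 and Slc16a3, a lactate transporter, 0.79 ± 0.20. Tceal7 had 1.59 ± 0.41, with 11.8 to 111 CPM in AOB-H and 7.65 to 25.6 in PAB-H. The ribosomal RNA precursor Rn45s was also named by the rule, with 97.1 CPM in AOB-H replicate 2 and at most 1.88 in the other 13 libraries, so its value rests on 1 library.

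Genes higher in PAB-H differed by less. Dlgap5, a mitotic spindle protein, ranged from 3.62 to 4.75 CPM in AOB-H and from 4.80 to 6.64 in PAB-H, without overlap, at -0.43 ± 0.10 (edgeR adjusted p 0.206). Taf9b, a subunit of transcription complexes, did not overlap either, with 18.7 to 23.9 CPM in AOB-H and 24.0 to 26.3 in PAB-H, at -0.26 ± 0.06 (edgeR adjusted p 0.227). Map2k6, a kinase upstream of p38, had -0.46 ± 0.11, Map7, a microtubule-binding protein, -0.40 ± 0.10, and Nr1i2, a nuclear receptor, -0.52 ± 0.14. Pccb, an enzyme of propionate breakdown, had -0.38 ± 0.11 and Phkg1, a subunit of phosphorylase kinase, -0.66 ± 0.18. The other 5 (Ccdc51, Asb12, Pdxp, Zfp955a and Atp6ap1l) lay between -0.69 and -0.29.

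Across all genes tested, 6 had every AOB-H library above every PAB-H library (0.0516%) and 5 the reverse (0.043%). The former were Nppb, Hopx, C2, Il17rd, Zfp354c and RGD1307315, and the latter Dlgap5, Taf9b, Rabep2, Dennd6b and Trpt1. Apart from Nppb, Dlgap5 and Taf9b, they are named because of this pattern. Hopx, a homeodomain protein of the heart, was at 115 to 206 CPM in AOB-H against 72.4 to 114 in PAB-H, at 0.59 ± 0.16.

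**Figure D2:**
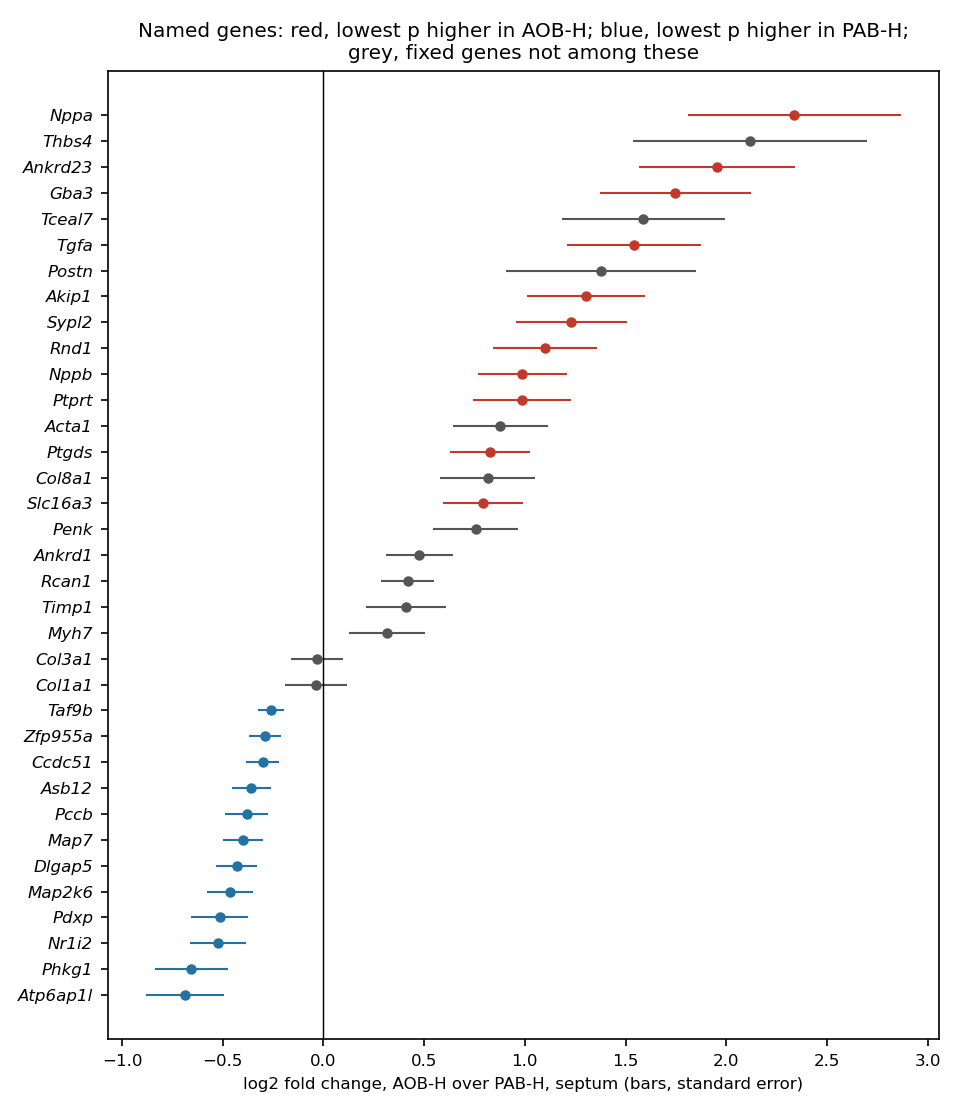
Log2 fold changes of AOB-H over PAB-H in the septum for the named genes, with bars for the standard error. Values run from -0.69 (Atp6ap1l) to 2.34 (Nppa), those of Col1a1 and Col3a1 lie near 0, and Rn45s is not drawn because 1 library sets its value.

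How the AOB-H animals varied bears on each of these values. Of the 12 genes named as higher in AOB-H, replicates 1, 2, 3 and 5 were above all PAB-H libraries for 11 and replicate 4 for 12. The number was 4 for replicate 6 and 2 for replicate 7. Replicate 3 was the highest AOB-H library for 10 of the 12. Leaving out replicate 6 gave 32 genes with an edgeR adjusted p under 0.05, 18 of them higher in AOB-H, and leaving out replicate 7 gave 11, 10 of them higher. Leaving out any other of the 14 libraries gave 0. Both counts come after removal of a library that lay low for these very genes. Without replicate 6, without replicate 7 and by DESeq2, 7 genes passed each time, namely Akip1, Ankrd23, Gba3, Nppa, Rnd1, Sypl2 and Tgfa. Of these only Ankrd23 was also among the 40 of limma-voom with sample weights. PAB-H varied too, and its replicate 3 was the lowest PAB-H library for Nppa, Nppb, Ankrd23, Sypl2, Akip1, Rnd1, Ptprt and Slc16a3. Without that library 675 genes lay below an unadjusted edgeR p of 0.05, and the lowest adjusted p was 0.465. By the library numbers in the labels each group had 2 libraries of 1 series and 5 of another (series 2 and 3), and within these series Ankrd23 had 1.78 and 2.08 and Nppa 2.22 and 2.42.

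The matrix was described by lists. Over all genes, 4.05% were higher and 3.51% lower in AOB-H at an unadjusted p under 0.05. The counts of this list and of those that follow are to be read beside these shares. Matricellular proteins and proteoglycans, which modulate contact between cells and matrix, had 25 of 29 tested members higher in AOB-H, 12 of them at an unadjusted p under 0.05 and 0 higher in PAB-H at that level. Their median log2 fold change was 0.32, against 0.00 over all genes. Ltbp2, a latent TGF-beta binding protein, had 1.81 ± 0.48, Cilp 1.19 ± 0.32 and Spp1, osteopontin, 2.05 ± 0.61. Thbs4, a thrombospondin, ranged from 0.807 to 34.7 CPM in AOB-H and from 0.963 to 6.81 in PAB-H, at 2.12 ± 0.58 (edgeR adjusted p 0.291). Postn, periostin, spanned 6.98 to 73.5 CPM in AOB-H and 7.30 to 16.9 in PAB-H, at 1.38 ± 0.47. Without AOB-H replicate 3 the count at an unadjusted p under 0.05 was 7. It was 1 of 28 tested within library series 2 and 16 of 29 within series 3.

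Fibrillar collagens and their crosslinking enzymes did not show this. Of 17 tested, 1 was higher in AOB-H at an unadjusted p under 0.05, the crosslinker Loxl1 at 0.52 ± 0.23, and the median was 0.04. Col1a1 had -0.04 ± 0.15 and Col3a1 -0.03 ± 0.13, the chains of the main fibrillar collagens. Col8a1, a network collagen, had 0.82 ± 0.24, with 11.6 to 37.2 CPM in AOB-H and 7.79 to 17.6 in PAB-H. Timp1, an inhibitor of metalloproteinases, had 0.41 ± 0.20.

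Macrophage and myeloid markers had a median of 0.40, the highest of the lists with at least 8 tested genes, with 10 of 10 higher in AOB-H. Of these, 8 were so at an unadjusted p under 0.05, against 4.05% of all genes. Within library series 2 the count was 1, and within series 3 it was 7. Lyz2, lysozyme, had 0.54 ± 0.20, C1qa, a complement subunit, 0.46 ± 0.18, Adgre1, a macrophage surface receptor, 0.44 ± 0.13, and Csf1r, the receptor for their growth factor, 0.31 ± 0.12. The summed level was 396 to 957 CPM in AOB-H (median 519), 384 to 472 in PAB-H (median 418) and 338 to 559 in Sham-H (median 458). The value of 957 was that of AOB-H replicate 3, and without it 1 of the 10 had an unadjusted p under 0.05, with a median of 0.23. In tissue, more cells of a type and more RNA per cell cannot be told apart.

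Genes of fatty acid uptake and oxidation had the lowest median of the lists with at least 8 tested genes, at -0.17. Of 36 tested, 3 were higher in AOB-H, and 5 were lower at an unadjusted p under 0.05, against 3.51% of all genes. Hadha and Acadvl, enzymes of beta-oxidation, had -0.25 ± 0.12 and -0.24 ± 0.10. Their summed level was 16600 to 26000 CPM in AOB-H (median 20000) and 22800 to 24100 in PAB-H (median 23400), so that AOB-H spread on both sides of a narrow PAB-H range. The count of 5 became 0 without AOB-H replicate 1, 3 or 4 and 12 without replicate 6. Of 73 respiratory chain subunits, 3 were higher in AOB-H, and the median was -0.10. An unadjusted p under 0.05 was reached by 5, all lower in AOB-H (6.85%, against 3.51% of all genes). The count of 5 became 1 without AOB-H replicate 1, 2, 3 or 4 or PAB-H replicate 3 or 5. It was 2 without PAB-H replicate 1 and 12 without AOB-H replicate 6. Within library series 2, 36 of the 73 were higher in AOB-H. Cytosolic ribosomal proteins had 66 of 76 members higher in AOB-H but 0 at an unadjusted p under 0.05, with a median of 0.05. The 66 became 43 without AOB-H replicate 3, 46 without replicate 2 and 72 without replicate 4, against 50.7% of all genes higher. Of 29 genes of glucose uptake and glycolysis, 8 were higher in AOB-H, and the median was -0.07. At an unadjusted p under 0.05, 3 were lower and Slc16a3 was higher. The 3 were Slc2a4, the insulin-responsive glucose transporter, at -0.26 ± 0.09, the muscle enolase Eno3 at -0.52 ± 0.16 and the glycogen synthase Gys1 at -0.26 ± 0.12.

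**Figure D3:**
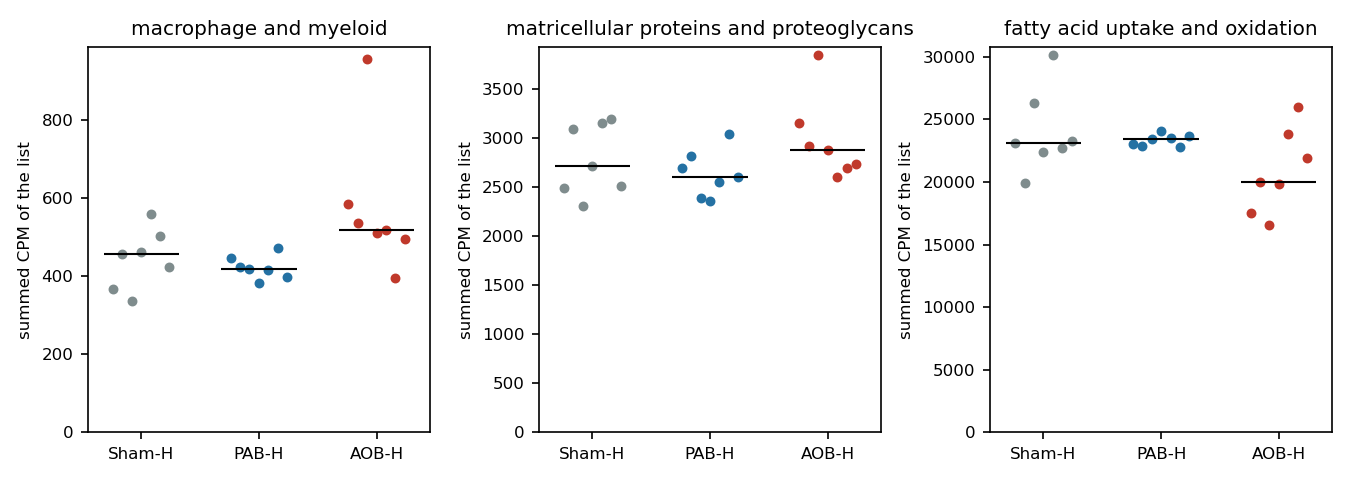
Summed CPM of 3 gene lists in each septum library, with replicates 1 to 7 from left to right and a line at the group's median. In the macrophage panel AOB-H replicate 3 stands at 957 CPM against 396 to 585 in the other AOB-H libraries, and in the fatty acid panel PAB-H is confined to 22800 to 24100 CPM.

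Sarcomere stress genes had 18 of 24 higher in AOB-H, with a median of 0.15. At an unadjusted p under 0.05, 9 were higher (against 4.05% of all genes) and 1 lower (Myh6). The 9 became 2 within library series 2 and 8 within series 3. They became 7 without AOB-H replicate 3 or PAB-H replicate 6, and 11 without AOB-H replicate 6. Xirp2, a protein of the intercalated disc, had 0.67 ± 0.22 and Csrp3, a stretch-associated protein of the Z-disc, 0.27 ± 0.11. Calcium cycling genes had a median of -0.13, with 0 of 14 higher and 2 lower at that level (Hrc and Pln). Ion channels held 1 in each direction, the T-type calcium channel gene Cacna1g at 0.59 ± 0.25 and Kcnj5 at -0.39 ± 0.16. Gja1, the main ventricular connexin, had -0.29 ± 0.10. No gene of the circadian clock, the ribosomal proteins, the interferon-stimulated genes or the angiotensin and adrenergic system reached an unadjusted p under 0.05 in either direction. Lists picked by the study from purified heart muscle cells of separate animals were also counted. Of 223 genes from pulmonary artery banding, 73 were higher in AOB-H and 5 lower at that level, with a median of 0.21. Of 120 from aortic banding, 38 were higher and 1 lower, with a median of 0.27. Over all genes the shares were 4.05% higher and 3.51% lower. The lists share genes. Each holds genes that the study found raised and genes it found lowered, so the counts do not measure agreement with its directions.

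Markers of heart muscle were present throughout the septum libraries. Their summed level was 66400 to 91600 CPM in AOB-H (median 74500), 80100 to 92800 in PAB-H (median 87900) and 83800 to 121000 in Sham-H (median 90400). AOB-H replicates 1 to 5 lay at 66400 to 78300, below every PAB-H library, and replicates 6 and 7 at 91600 and 89300. The markers were lower in AOB-H in 11 of 11 genes, with a median of -0.09. Of these, 2 were so at an unadjusted p under 0.05 (Myh6 and Pln), against 3.51% of all genes. Genes of other cell types were high in 1 or a few libraries. Myl7, an atrial light chain, was at 85.8 CPM in PAB-H replicate 1 and at 34.5, 30.3 and 29.4 in AOB-H replicates 2, 3 and 4, against at most 6.78 in the other libraries of both groups. Adipoq, an adipocyte gene, was at 5.53 CPM in AOB-H replicate 2 and at most 0.960 elsewhere in the 14. Their part in the results was not tested. Sham-H replicate 5, which stood apart in composition (median Spearman correlation 0.953 with the other 20 libraries, the rest 0.985 to 0.994), is in no contrast of AOB-H with PAB-H, and without it in the fit 0 genes were called and 1228 lay below an unadjusted p of 0.05.

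**Figure D4:**
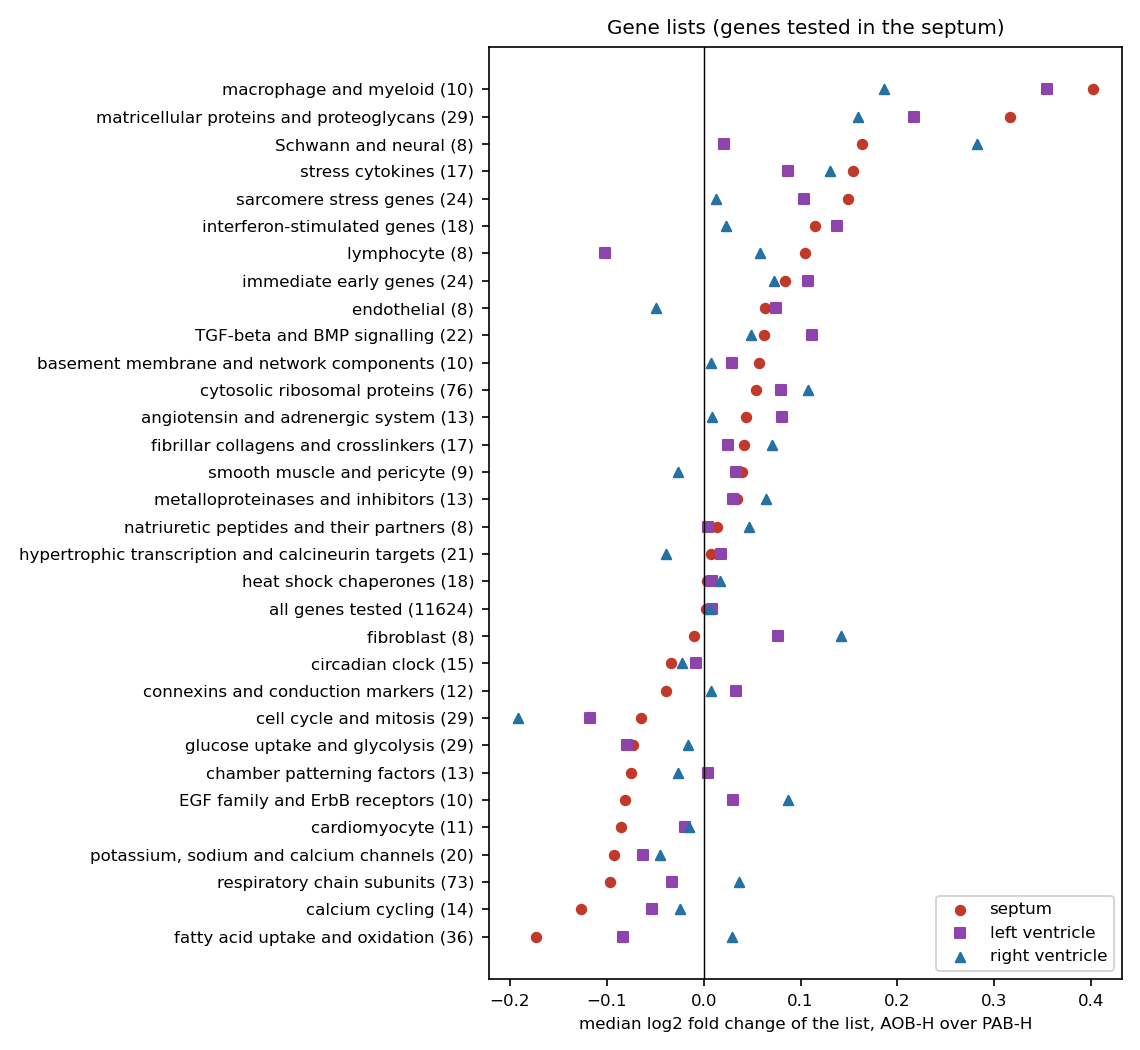
Median log2 fold change of AOB-H over PAB-H for gene lists with at least 8 tested genes, in the septum (circles), LV (squares) and RV (triangles). In the septum the medians run from -0.17 for fatty acid uptake and oxidation to 0.40 for macrophage and myeloid markers, with all genes at 0.00.

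Against the shams, both bandings were compared to see which side moved. AOB-H minus Sham-H had 0 genes with an edgeR adjusted p under 0.05 (0%) and 1851 at an unadjusted p under 0.05 (15.9%). Of the 1851, 657 were higher in AOB-H (5.65%) and 1194 lower (10.3%), and the 15.9% became 9.03% without Sham-H replicate 5. PAB-H minus Sham-H gave 0 by the same test (0%) and 516 at an unadjusted p under 0.05 (4.44%), 125 of them higher (1.08%) and 391 lower (3.36%). The 4.44% became 1.94% without Sham-H replicate 5, 2.25% without PAB-H replicate 4, and 9.18%, 8.83% and 9.59% without Sham-H replicates 1, 3 and 7. DESeq2 called 13 and 0 genes. These contrasts share the banded libraries with the direct comparison and the shams with each other. Side by side, Ankrd23 had 1.88 in AOB-H and -0.07 in PAB-H, Nppa 1.90 and -0.44, Tgfa 1.74 and 0.20, Thbs4 2.47 and 0.35, and Nppb 0.48 and -0.50. For Dlgap5 the values were -0.27 and 0.16, and for Map2k6 -0.38 and 0.08.

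The same animals' ventricles show the septum between its neighbours. Over the 50 genes that most separated RV from LV in the other animals, 3 of the 21 compensated animals had the opposite direction (AOB-H replicate 1, PAB-H replicate 2 and Sham-H replicate 6, at -1.51 to -1.15, against 0.0411 to 1.78 in the others), so their libraries labelled LV and RV are in doubt. In LV, the chamber loaded by aortic banding, 0 of 11703 genes passed by edgeR (0%) and 1, Gba3, by DESeq2, while 254 lay below an unadjusted p of 0.05 (2.17%), 176 of them higher in AOB-H (1.5%) and 78 lower (0.666%), and 298 without the 3 animals. Of the 12 septum genes higher in AOB-H, 11 were tested in LV and 11 were higher there, against 53.7% of all genes. Of the 11, 8 had an unadjusted p under 0.05, and the median was 0.94. Without the 3 animals the same counts were 11 and 8, with a median of 0.97, against 51.8% of all genes higher. The genes were chosen in the septum of these same animals, so their LV and RV values are no separate evidence. The 12 genes higher in PAB-H were lower in AOB-H in LV in 12 of 12, 3 at that level and 1 without the 3 animals. In RV 0 of 11734 genes passed by edgeR (0%) and 0 by DESeq2, while 107 lay below an unadjusted p of 0.05 (0.912%), 82 higher (0.699%) and 25 lower (0.213%), and 167 without the 3 animals. There 10 of the 12 were higher in AOB-H with all animals, against 53.4% of all genes. Without the 3 animals 2 of 12 were higher, against 51.6%, and the median turned from 0.31 to -0.38. By chance alone about 585 genes in LV and 587 in RV would lie below an unadjusted p of 0.05. The shares at that p are therefore no measure of which chamber differed most.

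Ankrd23 had 1.74 ± 0.42 in LV and 0.43 ± 0.64 in RV, and 1.77 ± 0.44 and -0.40 ± 0.64 without the 3 animals. For Nppa the values were 0.94 ± 0.56 and 0.69 ± 1.02, and 1.36 ± 0.54 and -0.55 ± 1.08 without them. Gba3 had 1.88 ± 0.40 in LV, where it held the lowest p. The difference between bandings in the septum was tested against that in each ventricle, with the animal as a block. Against LV, 0 of 11924 genes passed by edgeR (0%) and 91 lay below an unadjusted p of 0.05 (0.763%, 0.478% higher and 0.285% lower). Chance alone gives about 596 on average, more than the 91 seen. Whether the test with the animal as a block is conservative was not tested, and 0 calls do not show that the septum moved as LV did. Ankrd23 had 0.22 and Nppa 0.86 for the septum minus LV (0.16 and 0.57 without the 3 animals, when 91 genes lay below that p). The genes named by lowest p were Nalcn, Adipoq and Car3 in one direction and Rnf168, March3 and Anapc10 in the other, of which Adipoq and Car3 were high in AOB-H replicate 2, at 5.53 and 6.69 CPM. Against RV, 1 gene passed (0.00839%), Rn45s, and 297 lay below an unadjusted p of 0.05 (2.49%, 0.956% higher and 1.53% lower), with Ankrd23 at 1.08 and Nppa at 1.55. Without the 3 animals, 1 gene passed, 476 lay below that p, and Ankrd23 had 1.30 and Nppa 2.02. The other genes named there were Snph, Pold3, March3, Igsf3 and Nr1i2.

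**Figure D5:**
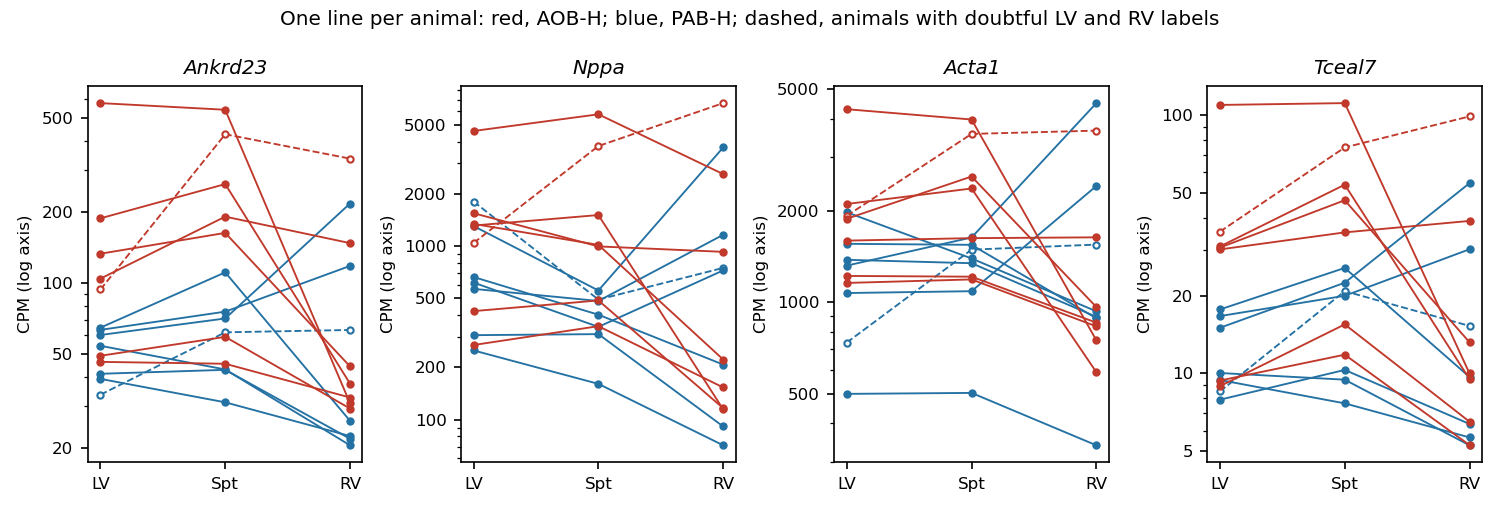
Levels of 4 genes in CPM (log axis) in LV, septum and RV, scaled within each chamber, with 1 line per animal, red for AOB-H and blue for PAB-H. Dashed lines are the animals with doubtful LV and RV labels (AOB-H replicate 1 and PAB-H replicate 2), and AOB-H replicate 3 is highest for Ankrd23 in septum and LV, at 542 and 578 CPM.

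At the failing stage other animals were sampled. The septum of 4 AOB-F animals (by the labels 30 weeks old, 24 weeks after surgery) was set against 3 age-matched shams (Sham-LF). That of 3 PAB-F animals (by the labels 27 weeks old, 21 weeks after surgery) was set against 2 (Sham-RF), and this second difference was subtracted from the first. The study's text gives other ages and times after surgery for this stage. By edgeR and by DESeq2 0 genes passed (0%), and 507 lay below an unadjusted edgeR p of 0.05 (4.36%, 2.44% positive and 1.92% negative). The 4.36% became 10.0% without Sham-LF replicate 1 and 2.69%, 2.78% and 2.84% without Sham-RF replicate 2, PAB-F replicate 1 and AOB-F replicate 1. Of the 12 genes higher in AOB-H, 12 had a positive difference, 2 of them at an unadjusted p under 0.05 (Slc16a3 and Tgfa), with a median of 1.07, against 46.2% positive over all genes. The 12 genes higher in PAB-H were negative in 12 of 12, 6 at that level. Ankrd23 had 1.53 ± 0.83, Tgfa 1.57 ± 0.71, Slc16a3 1.14 ± 0.44 and Phkg1 -1.30 ± 0.42. These animals share no library with the compensated stage, but both comparisons come from 1 fit of the 33 septum libraries. The genes of each 12 were read in the same few animals, so 12 of 12 is no count of separate tests. Rn45s, among the 12 higher in AOB-H, had 4.20 ± 12.67.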

How the data were processed

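Read counts per gene were used as deposited. Per the study's methods and the submitters' processing notes, the authors trimmed single-end reads with Trim Galore, aligned them with STAR to Rnor6.0 with UCSC annotation and made the counts with featureCounts, and the strand setting is not given in the sources used here. The deposited normalized values (a signal, the counts divided by 1 size factor per sample) and FPKM values were not analysed further. The table held 17337 genes. Samples were grouped by title. The main test was edgeR 4.0.16 (R 4.3.3) with TMM scaling, its filter on low counts and the quasi-likelihood test over all 33 septum libraries, Benjamini-Hochberg adjusted, with an adjusted p under 0.05 called, and was tested on simulated data. DESeq2 1.42.0, limma 3.58.1 and leaving out single libraries were alternatives. Named genes are 16 fixed genes and, per direction, the 12 with the lowest p among genes whose higher group averaged 1 CPM or more, leaving aside uncharacterised symbols (LOC, RGD, Mir, AABR prefixes) (3 per direction between chambers). Members and lists were chosen with earlier results of these data known. Replicate numbers of the septum groups do not name shared animals, and same-numbered libraries did not deviate together (correlations of -0.239 to 0.273 over 3 pairs of groups). No 2 libraries of a group agreed within sampling noise (chi-square per gene of at least 5.58 over 63 pairs). By their labels, replicates are separate animals. Of the named genes, 36 of 45 matched a RefSeq promoter by symbol. Promoters were read from RefSeq's GRCr8 table.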

Additional observations from a re-analysis of the deposited data

Results flagged for a closer look

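Among the named genes, 5 of 72 groups of 7 septum libraries held a library far from the rest (Dixon's ratio over 0.568 on the log2 scale), while chance gives about 4. Acta1 in PAB-H replicate 3 was at 504 CPM against 1090 to 1630 in the others. Ptprt in the same library was at 1.88 CPM against 3.74 to 5.29. Penk in AOB-H replicate 7 was at 274 CPM against 435 to 538. Rn45s in AOB-H replicate 2 was at 97.1 CPM, with at most 1.88 in the others, and in PAB-H replicate 3 at 0 against 0.0553 to 0.108. In PAB-H these are 0 reads against 1 or 2, all below the detection floor of 3 counts.

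The difference between bandings in the septum minus that in RV passed for Rn45s, the ribosomal RNA precursor, at 12.1 on the log2 scale by edgeR's test with the animal as a block.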

How the results depend on the processing

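AOB-H against PAB-H in the septum gave 0 called genes in the main test and 0 with DESeq2 size factors, without the filter on low counts, in the 14 or the 21 compensated libraries alone, with library series as covariate, within series 2 or 3, with robust dispersion and with the replicate block (749 genes at an unadjusted p under 0.05). It gave 1 (Rn45s) with all 99 libraries in 1 fit, 8 by DESeq2 and 40 by limma-voom with sample quality weights. Leaving out 1 library at a time gave 0 to 32, with 32 without AOB-H replicate 6 and 11 without replicate 7. AOB-H against Sham-H gave 13 by DESeq2 and 0 to 92 with 1 library left out. LV gave 1 by DESeq2. The cause was not tested. The numbers share no animal across groups, and the block changed no count of calls.

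Col1a1 and Col3a1 changed sign, at 0.033 and 0.017 within library series 3, and ranged from -0.14 to 0.057 and from -0.11 to 0.039 with 1 library left out. Of the other values of named genes and lists, 1951 kept their direction and side of the threshold or moved by less than 1 SD, 49 gene values passed in the same direction, and 14 list medians moved by more. No alternative moved the median of all genes by over 0.1.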

Other observations

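Heat shock chaperones, which help proteins to fold, had 9 of 18 genes higher in AOB-H than in PAB-H, and 3 were so at an unadjusted p under 0.05 (against 4.05% of all genes), namely Hspb6 at 0.24 ± 0.08, Hspb7 at 0.18 ± 0.08 and Hspb1 at 0.31 ± 0.15, while the median of the list was 0.00. Of 13 tested chamber patterning factors 1 was lower at that level, the transcription factor gene Gata6 at -0.29 ± 0.09. Tnfrsf12a, the receptor of the cytokine TWEAK, had 0.41 ± 0.17 and Tnfrsf11b, osteoprotegerin, 0.56 ± 0.26, and these were the 2 of 17 tested stress cytokine genes at that level, with 16 of the 17 higher in AOB-H.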
